A study of Mus musculus with 2 samples.

Results

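Fibroblasts that carried transcripts of Pi16 or Dpp4 were described in back skin of imiquimod-treated mice, in a Chrna5 knockout (KO) library and a wild-type (WT) library. The cells were chosen by their own measured counts, so the levels of the genes used are a description and support nothing. A barcode was taken if it held at least 1000 unique molecular identifiers (UMIs, counts of captured RNA molecules), no fewer than 200 detected genes, with mitochondrial UMIs at 10% or below. Col1a1, Col1a2, Col3a1 and Dcn together had to make up at least 0.5% of its UMIs, Krt5 and Krt14 less than 0.5%, and Pi16 and Dpp4 had to sum to at least 2 UMIs. Barcodes with 3 or more UMIs of Fmod and Tnmd, or with 3 or more of the genes Crabp1, Lef1, Rspo3, Dkk2, Pappa2 and Dio2 detected, were left out. This gave 990 cells, the members, of 21231 kept barcodes: 508 of 9605 in KO and 482 of 11626 in WT. The other 4091 barcodes that passed the collagen and keratin limits (2075 in KO and 2016 in WT) are called the other fibroblasts.

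The libraries came from Chrna5 KO mice and WT mice, 1 library each, and all mice received imiquimod, an agonist of an endosomal Toll-like receptor that gives mouse skin a psoriasis-like inflammation. Chrna5 is the gene for a nicotinic acetylcholine receptor subunit, and the labels give the KO line a backcross to C57BL/6N of over 10 generations, while elsewhere they name C57BL/6J. Females of 6 to 8 weeks received 62.5 mg of 5% cream daily on shaved backs for 6 days, and skin was taken on day 7, digested with collagenase and sorted for live cells. With 5 mice stated for each group, it remains unknown from the labels if cells of several mice were pooled in a library, and which part of Chrna5 was deleted. With 1 library per genotype no test between genotypes was possible: each value compares these 2 libraries, and every interval is an exact 95% interval of counting error alone. Chrna5 had 0 UMIs in the members of both libraries, which at a limit of 3 counts allows up to 0.788 CPM in KO and 0.732 CPM in WT (CPM, a gene's UMIs scaled by all UMIs of the same cells, where 1 UMI equals 0.263 CPM in KO and 0.244 CPM in WT members), so it does not check the genotype labels here.

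As background, Pi16 (peptidase inhibitor 16) and Dpp4 (dipeptidyl peptidase 4, CD26) are used as markers of fibroblasts of the adventitia, fascia and other connective tissue sheaths in the mouse, where such cells are described as a reserve from which other fibroblasts can arise. Clec3b (tetranectin) and Mfap5 (a microfibril protein) are often listed with them. Dermal fibroblasts build collagen and elastic fibres, and in inflamed skin they also release chemokines, complement and acute phase proteins.

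Pi16 lies on chromosome 17 (29317680 to 29330593, plus strand) and Dpp4 on chromosome 2 (62330073 to 62412231, minus strand) of GRCm38. The KO library held 123839924 UMIs in 10886 barcodes and the WT library 147260653 UMIs in 14557. Members held a median of 7109 UMIs in KO and 7884 in WT, with 3807060 and 4099581 UMIs in all. The libraries shared 37 kept barcodes and 0 members. Markers of other cell types were found in the members: 10 keratinocyte markers summed to 532 CPM in KO and 983 CPM in WT, against 17055 and 19030 CPM in keratinocyte-like barcodes, and none of the 10 was at 0. In all, 53.9% of KO and 91.1% of WT members held 3 or more UMIs of these markers. The 14 myeloid markers, again with none at 0, summed to 236 CPM in KO and 406 CPM in WT members. A gene is called possible free RNA below where its level in members was under 20% of that in another cell class of the same library, taking the library where the gene was higher.

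Membership rested mostly on Pi16. Of the KO members 94.7% held a Pi16 UMI and 22.8% a Dpp4 UMI, against 97.3% and 11.8% of the WT members. Both genes were seen in the same cell in 17.5% of KO and 9.13% of WT members, and 27 KO and 13 WT cells qualified on Dpp4 alone. Pi16 stood at 476 CPM in KO and 492 CPM in WT members, and Dpp4 at 42.0 and 21.9 CPM. Pi16 was not particular to the members. In the Fmod and Tnmd fibroblasts that the rule left out it was at 565 CPM in KO and 547 CPM in WT. In the papilla-like cells, left out by the genes from Crabp1 to Dio2, it was at 257 and 214 CPM. Many members stood at the threshold, since 254 of 508 KO and 194 of 482 WT members had a sum of exactly 2 UMIs, and 494 KO and 455 WT cells outside had exactly 1. Mfap4 was at 104 CPM in KO members with a sum of 2 and at 67.2 CPM in KO cells with a sum of 1, and in WT at 78.0 and 58.8 CPM. Mfap5 was at 37.6 and 23.5 CPM in KO, and at 25.8 and 22.1 CPM in WT. The Mfap5 intervals of WT cells overlapped, at 18.4 to 35.1 CPM with a sum of 2 and 17.6 to 27.4 CPM with a sum of 1.

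Dpp4 was not seen more often in fibroblasts with Pi16 than in those without it. Among fibroblasts outside the Fmod, Tnmd and papilla-like groups, thinned to 3000 UMIs each, Dpp4 was seen in 5.16% (3.36 to 7.51) of KO cells with a Pi16 UMI and in 6.64% (5.48 to 7.96) of those with none. In WT the shares were 2.57% (1.38 to 4.36) and 2.93% (2.16 to 3.88). Without thinning they were 10.9% and 12.2% in KO, and 5.26% and 6.41% in WT. In unthinned keratinocyte-like barcodes, 2.45% in KO (median 16292 UMIs) and 1.77% in WT (median 6465 UMIs) held a Dpp4 UMI. As a level, Dpp4 was at 12.4 CPM in KO and 6.68 CPM in WT other fibroblasts, against 1.26 CPM in KO and 1.27 CPM in WT keratinocyte-like barcodes.

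The label was checked against genes that the limits did not use. Clec3b was higher in members than in other fibroblasts, at 70.1 against 42.7 CPM in KO and 49.0 against 28.6 CPM in WT, ratios of 1.64 (1.42 to 1.90) and 1.71 (1.44 to 2.03). Mfap5 was at 70.4 against 31.1 CPM in KO and 44.1 against 19.5 CPM in WT, with a ratio of 2.27 in both. Within the other fibroblasts, Mfap5 was at 54.15 CPM in KO and 60.5 CPM in WT Fmod and Tnmd cells. In papilla-like cells it was at 78.4 CPM in KO and 21.25 CPM in WT. Mfap5 was thus above the members in WT Fmod and Tnmd cells and in KO papilla-like cells. Other genes given with Pi16 and Dpp4 differed less. Cd55 (a complement inhibitor) had ratios of 1.06 in KO and 1.36 in WT, Sema3c (a secreted semaphorin) 1.10 and 1.08, Ly6c1 1.18 and 1.13, and Anxa3 (an annexin) 0.951 and 1.21. Over 24 measured genes of a progenitor list, 2 were at least 1.5-fold higher in both libraries and 0 lower, beside 0.791% of all 9487 genes higher and 1.17% lower. The 2 genes are Clec3b and Mfap5, which are also the markers given with the set. The set is therefore described by its rule and its leading genes, and not as a progenitor class.

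Levels of several matrix genes followed the sum of Pi16 and Dpp4 UMIs per cell. With every cell thinned to 3000 UMIs, Mfap4, a protein of elastic microfibrils, stood at 48.8, 113, 276 and 679 CPM in KO cells with 0, 1, 2 and 3 or more UMIs of Pi16 and Dpp4, and at 38.9, 78.0, 159 and 269 CPM in WT cells. Eln, tropoelastin, ran over the same steps from 60.8 to 427 CPM in KO and from 38.9 to 163 CPM in WT. Lox, which cross-links elastin and collagen, ran from 418 to 1455 CPM in KO and from 410 to 962 CPM in WT. In these thinned counts the levels of all 3 went up at each step in both libraries. Grem1, a secreted antagonist of bone morphogenetic proteins (BMPs), went the other way, at 895, 683, 362 and 20.3 CPM in KO and 1370, 883, 623 and 129 CPM in WT. Mmp3, a matrix metalloproteinase, ran from 751 to 4.07 CPM in KO and from 1134 to 208 CPM in WT. Cells with a high sum of Pi16 and Dpp4 UMIs were thus low in Grem1 and Mmp3. The sum was mostly Pi16, which gave 1814 of 1974 UMIs in KO and 2017 of 2107 in WT members. Members with a Dpp4 UMI went the other way, with more Grem1 and less Mfap4 and Eln than members with Pi16 alone (values below). The last step held 82 KO and 88 WT cells, and 212 KO and 288 WT cells under 3000 UMIs were left out. The thinned WT Eln intervals with sums of 1 and 2 overlapped, at 37.9 to 66.5 and 48.6 to 107 CPM. Without thinning, WT Eln was at 105 CPM with a sum of 2 and at 80.9 CPM with 3 or more. Thinned Fn1 (fibronectin) ran from 115 to 203 CPM in KO. In WT it was at 50.3, 69.2, 30.1 and 56.8 CPM over the steps, with no steady rise.

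**Figure D1:**
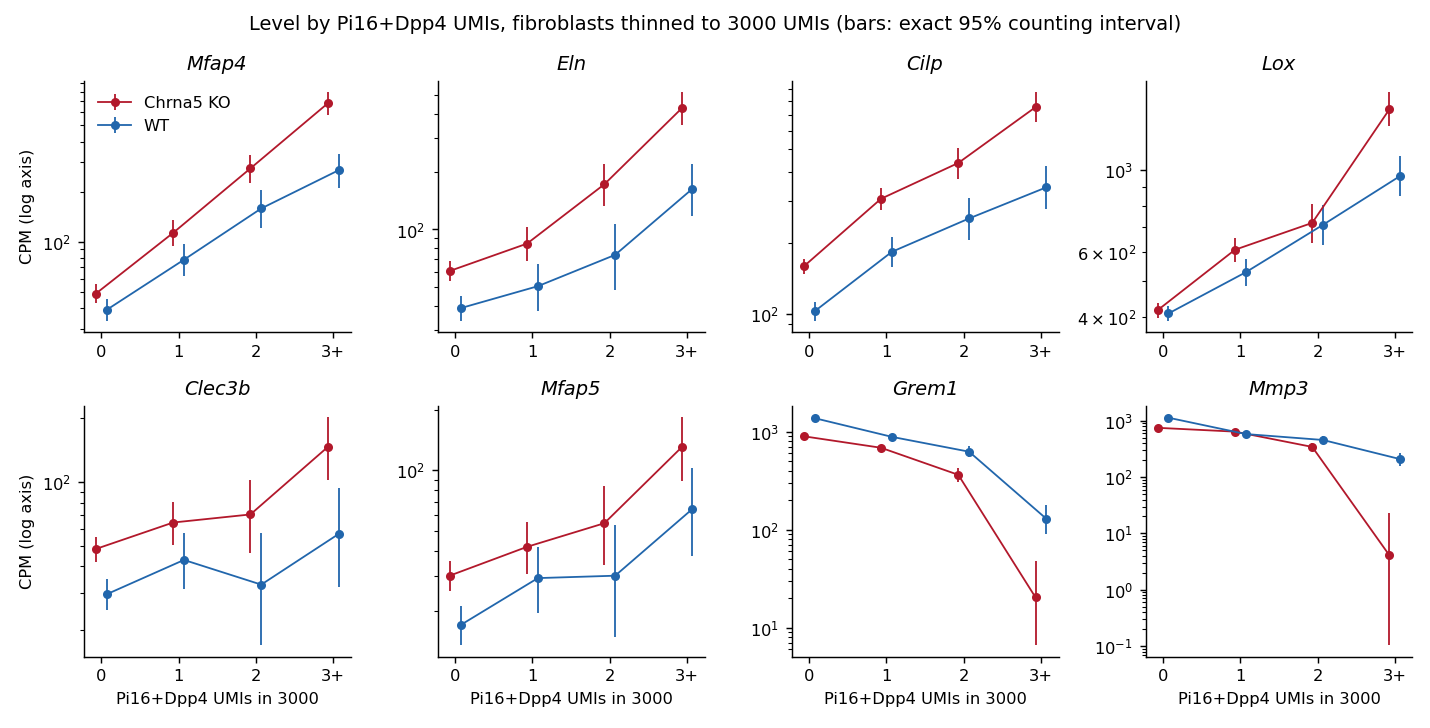
Level in CPM (log axis) of 8 genes in fibroblasts thinned to 3000 UMIs, by their sum of Pi16 and Dpp4 UMIs (0, 1, 2, 3 or more), for Chrna5 KO (red) and WT (blue), with exact 95% counting intervals. Mfap4 reaches 679 CPM in KO and 269 CPM in WT at the last step, while Grem1 is down to 20.3 CPM in KO and 129 CPM in WT.

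Against all other fibroblasts, 14 genes were at least 2-fold higher in members of both libraries (0.148% of 9487) and 24 at least 2-fold lower (0.253%), leaving out the genes of the rule. Of 21 measured elastic fibre genes 4 were at least 1.5-fold higher in both libraries and 0 lower, and of 19 fibrillar collagen genes and processing factors 0 were higher and 2 lower. Mfap4 was at 250 CPM in KO members and 41.8 CPM in other KO fibroblasts, and at 137 and 43.0 CPM in WT, ratios of 5.99 and 3.18. Eln had ratios of 3.42 in KO and 2.65 in WT, and Cilp, a matrix protein of cartilage and fibrous tissue, 3.07 and 2.39. Sod3, the extracellular superoxide dismutase, had 2.20 and 2.06, Col15a1, a basement membrane collagen, 2.54 and 2.80, and Tnfrsf11b (osteoprotegerin), a decoy receptor of the osteoclast factor RANKL, 3.83 and 3.38. Ackr2, a scavenger of chemokines, had 2.98 and 2.61. Nog, another BMP antagonist, was low, at 18.9 CPM in KO and 5.37 CPM in WT members, with ratios of 4.60 and 2.60. Slit2, a guidance ligand, Cxcl10, an interferon-induced chemokine, Col4a2, Cyp1b1 and F2r, the thrombin receptor, had ratios from 1.56 to 2.11 in KO and from 1.63 to 1.76 in WT. Some of these were not highest in the members. In KO papilla-like cells Eln was at 330 CPM, against 203 CPM in KO members, Sod3 at 171 against 125 CPM and Col4a2 at 447 against 285 CPM. Eln was at 103 CPM in WT Fmod and Tnmd cells, against 90.0 CPM in WT members. Cyp1b1 and F2r were above the members in both of these groups. Mfap4 and Cilp were below the members in Fmod and Tnmd and in papilla-like cells of both libraries. Among the 14 genes, C1qa, C1qc and Mrc1 are macrophage genes, with 2.30, 2.55 and 2.01 in KO and 2.43, 3.69 and 2.02 in WT. All 3 were possible free RNA in both libraries. They were seen in 2.56%, 1.77% and 1.18% of KO and 8.92%, 7.47% and 5.19% of WT members. For each gene a single cell held 47.9%, 57.3% and 72.2% of its KO member UMIs, and 47.1%, 55.7% and 21.0% in WT. The myeloid marker sum moved with them, at 236 CPM in KO members against 160 CPM in other KO fibroblasts, and 406 against 242 CPM in WT. Its part in the differences was not tested. With members that held 3 UMIs of another non-keratinocyte lineage left out, the count of higher genes was 9.

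Among genes lower in members, Grem1 was at 522 CPM in KO members and 820 CPM in other KO fibroblasts, and at 567 and 1327 CPM in WT, ratios of 0.637 and 0.427. Mmp3 had ratios of 0.578 in KO and 0.484 in WT, Sox11, a developmental transcription factor, 0.534 and 0.358, and Inhbb, an activin subunit, 0.607 and 0.398. Pi15, a secreted relative of Pi16, was at 22.1 against 54.4 CPM in KO and 37.6 against 90.4 CPM in WT, so this family member did not go with Pi16. Low levels of these genes were not particular to the members, since all were lower still in Fmod and Tnmd cells of both libraries. Grem1 was at 28.7 CPM in KO and 318 CPM in WT Fmod and Tnmd cells, and Mmp3 at 54.8 and 174 CPM. Aspn, a small proteoglycan of tendon and periodontal tissue, had ratios of 0.212 in KO and 0.490 in WT. Against fibroblasts that also lacked the Fmod, Tnmd and papilla-like features the Aspn ratios turned round to 1.33 and 1.04, since the rule had removed the cells that carry it, with 4825 CPM in KO and 3751 CPM in WT Fmod and Tnmd cells. Igfbp5, which binds insulin-like growth factors, had a ratio of 0.286 (0.265 to 0.309) in KO and one between 0.450 and 0.554 in WT, and 0.856 and 0.625 in the same narrower comparison.

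The members were not uniform. Set against members with Pi16 alone (392 KO and 425 WT cells), the members with a Dpp4 UMI (116 KO and 57 WT cells) had 24 genes at least 2-fold higher in both libraries (0.407% of 5896) and 42 at least 2-fold lower (0.712%). Igfbp3, a carrier of insulin-like growth factors, was at 532 CPM with Dpp4 and 175 CPM with Pi16 alone in KO, and at 1257 and 222 CPM in WT. Grem1 was at 1142 and 305 CPM in KO, and at 1208 and 464 CPM in WT. Gpx3, a secreted glutathione peroxidase, had ratios of 2.82 in KO and 3.36 in WT, Slco2a1, a prostaglandin transporter, 3.07 and 2.57, and F3, tissue factor, 2.50 and 3.02. Mfap4 and Eln were lower where Dpp4 was seen. Mfap4 was at 59.7 CPM with Dpp4 and 317 CPM with Pi16 alone in KO, and at 50.9 and 151 CPM in WT. Eln had ratios of 0.315 in KO and 0.281 in WT, Enpp2 (autotaxin), the enzyme that makes lysophosphatidic acid, 0.120 and 0.115, and Coch (cochlin), a matrix protein, 0.108 and 0.183. Pi16 itself was lower in the members with Dpp4, at 188 against 578 CPM in KO and 207 against 538 CPM in WT. Either gene could fill the limit, and the part of the limit in this difference was not tested. The presence of Dpp4 and a lower Pi16 cannot be told apart in this split.

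**Figure D2:**
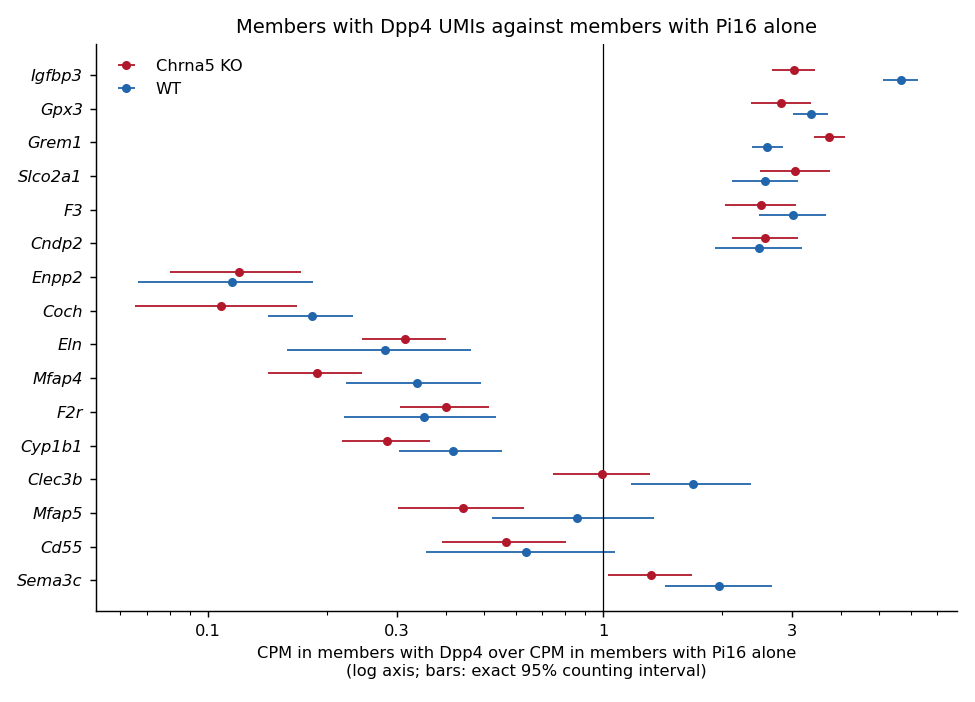
Ratio (log axis) of the level in members with a Dpp4 UMI over the level in members with Pi16 alone, for 12 named genes and 4 markers, in Chrna5 KO (red) and WT (blue), with exact 95% counting intervals. Igfbp3, Gpx3, Grem1, Slco2a1, F3 and Cndp2 lie above 1 in both libraries, and Enpp2, Coch, Eln, Mfap4, F2r and Cyp1b1 below it.

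The members made up 5.29% (4.85 to 5.76) of kept KO barcodes and 4.15% (3.79 to 4.52) of kept WT barcodes, a ratio of 1.28 (1.12 to 1.45). As a share of all fibroblasts they were 19.7% (18.1 to 21.2) in KO and 19.3% (17.8 to 20.9) in WT, a ratio of 1.02. The first ratio thus went with the share of fibroblasts among kept barcodes, 26.9% in KO and 21.5% in WT. It was 1.08 with 3000 UMIs as the minimum per barcode. As a description of the genes that chose the cells, the KO over WT ratio in members was 0.969 for Pi16 and 1.91 for Dpp4. In all other fibroblasts it was 2.01 for Pi16 and 1.86 for Dpp4, and in those outside the Fmod, Tnmd and papilla-like groups 1.07 and 2.09.

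Between genotypes, 243 of 8014 genes with at least 50 UMIs over both libraries were at least 2-fold higher in KO members (3.03%) and 185 at least 2-fold lower (2.31%). Of these 33 and 65 were possible free RNA, and 112 of the higher and 106 of the lower genes were also at least 2-fold different the same way in the other fibroblasts. The median over all tested genes was 0.06 on the log2 scale. With scaling by the median of ratios, a shift of 0.08, the counts were 188 higher and 219 lower, so the split between the directions rests on the scaling. Without members that held 3 UMIs of another lineage, which left 218 KO and 38 WT cells, 92 of 4155 tested genes were lower. Lists of related genes were read at a lower bar, 1.5-fold with an interval that leaves out 1, over genes with at least 20 UMIs. At that bar 9.75% of 10070 genes were higher in KO and 6.46% lower.

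**Figure D3:**
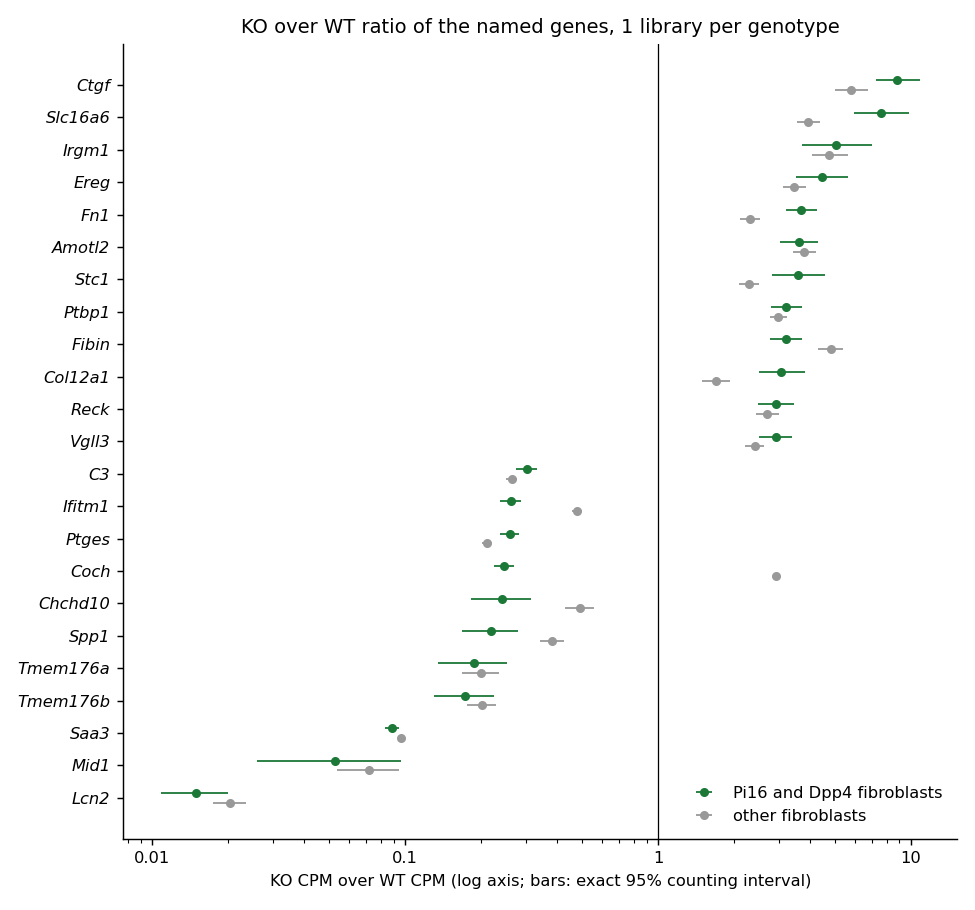
KO over WT ratio of CPM (log axis) for the named genes, in the Pi16 and Dpp4 fibroblasts (green) and in the other fibroblasts (grey), with exact 95% counting intervals. Most genes lie on the same side of 1 in both, while Coch is at 0.246 in the members and 2.92 in the others.

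Acute phase genes were lower in KO members, with the lowest median of the 34 lists. Of 18 measured, which by its antiprotease part includes Pi16 itself, 15 were lower and 0 higher, with a median of -1.37 on the log2 scale against 0.06 for all genes. The list median was -1.39 in the other fibroblasts. Saa3 (chromosome 7, 46711998 to 46715700, minus strand), a serum amyloid A of inflamed mouse tissue, was at 292 CPM (275 to 310) in KO and 3291 CPM (3236 to 3347) in WT members, a KO over WT ratio of 0.0888. A Saa3 UMI was seen in 11.4% of KO and 65.8% of WT members, with at most 144 UMIs in a KO cell and 574 in a WT cell. Lcn2 (lipocalin 2), which binds bacterial siderophores, was at 11.8 CPM in KO and 793 CPM in WT members, a ratio of 0.0149 (0.0109 to 0.0200), and its highest KO cell held 3 UMIs. Serpina3n, a protease inhibitor and the second most abundant gene of the list in WT members, was at 791 and 1691 CPM, a ratio of 0.468 (0.448 to 0.489). Steap4, a metal reductase, had 0.361 and Cp (ceruloplasmin), the copper-carrying ferroxidase, 0.505. Ptx3, a pattern recognition protein, was close to even, at 259 CPM in KO and 238 CPM in WT.

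The same 2 genes were widespread in other cells of the WT library. Saa3 UMIs were seen in 3.69% of keratinocyte-like and 10.0% of myeloid barcodes in KO, against 48.8% and 64.6% in WT, and the WT levels were 108 and 2918 CPM. Saa3 in WT members, at 3291 CPM, was above both of these classes. Lcn2 was at 138 CPM in KO and 728 CPM in WT keratinocyte-like barcodes, the WT level close to the 793 CPM of WT members. It was highest in endothelial-like barcodes, at 934 CPM in KO and 1175 CPM in WT. For Lcn2 in WT members, free RNA and the cells' own RNA cannot be told apart. In the other fibroblasts the KO over WT ratios were 0.0966 for Saa3 and 0.0203 for Lcn2, so the difference was not particular to the members.

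The upstream sequences of Saa3, Lcn2 and C3, which were low together in KO members, are shown with those of Amotl2, which was high. They are the 250 bases before the RefSeq transcript start nearest to the GENCODE gene start (build GRCm38.p6, written 5′ to 3′ on the strand of the gene). Saa3 is chr7:46715677-46715926 on the minus strand, Lcn2 chr2:32387740-32387989 minus, C3 chr17:57228137-57228386 minus and Amotl2 chr9:102717554-102717803 plus. The RefSeq start was 24 bases from the GENCODE gene start for Saa3, 513 for Lcn2, 0 for C3 and 1132 for Amotl2. The Lcn2 and Amotl2 windows thus lie within the annotated genes. Capitals mark matches, on either strand, to the C/EBP core TTGCNNAA in the first 3 and to the TEAD core GGAATG in Amotl2.
Saa3: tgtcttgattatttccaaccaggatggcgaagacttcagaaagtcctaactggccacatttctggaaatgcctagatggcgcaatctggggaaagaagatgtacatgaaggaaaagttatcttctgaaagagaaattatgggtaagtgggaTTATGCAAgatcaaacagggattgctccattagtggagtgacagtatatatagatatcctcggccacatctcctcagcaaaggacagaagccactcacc
Lcn2: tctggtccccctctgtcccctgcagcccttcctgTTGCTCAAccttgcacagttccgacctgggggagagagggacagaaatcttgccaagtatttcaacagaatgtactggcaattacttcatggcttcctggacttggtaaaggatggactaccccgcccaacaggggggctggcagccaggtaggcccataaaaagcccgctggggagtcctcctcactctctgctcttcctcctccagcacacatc
C3: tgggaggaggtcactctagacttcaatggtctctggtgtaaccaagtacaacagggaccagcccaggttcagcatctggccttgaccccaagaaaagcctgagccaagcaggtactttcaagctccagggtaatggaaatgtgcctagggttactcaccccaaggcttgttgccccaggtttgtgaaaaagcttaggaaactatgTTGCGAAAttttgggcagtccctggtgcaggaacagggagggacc
Amotl2: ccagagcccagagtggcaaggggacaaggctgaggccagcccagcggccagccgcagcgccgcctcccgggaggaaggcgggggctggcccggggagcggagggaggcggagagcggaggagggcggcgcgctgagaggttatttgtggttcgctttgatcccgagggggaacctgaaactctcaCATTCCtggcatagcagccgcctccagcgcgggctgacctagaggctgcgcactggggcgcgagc
The C/EBP core, read by a family of liver and inflammation factors, was found at positions -99 to -92 of Saa3, -216 to -209 of Lcn2 and -45 to -38 of C3, counted back from the start, and in 9.56% of all 32851 such windows. The TEAD core, read by the partners of the coactivator YAP, was found at -65 to -60 of Amotl2 and in 12.6% of all windows. The consensus of NF-kB was searched on both strands too and had no match in these 4 windows, against 7.25% of all. A match describes letters in a window and is not evidence of binding.

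Complement genes were lower in KO members for 8 of 17 measured and higher for 3, with a median of -0.53. C3, the central protein of the cascade, was at 149 CPM in KO and 492 CPM in WT members, a ratio of 0.303 (0.275 to 0.333), and in 45.3% and 69.5% of the cells. Cfb, which forms the alternative pathway convertase with it, had 0.322, and C4b and C1ra of the classical pathway 0.602 and 0.570. Serping1, the C1 inhibitor and the most abundant gene of the list, was close to even at 846 and 787 CPM. Masp1, a protease of the lectin pathway, was higher, with a ratio of 1.85 (1.66 to 2.06). The median of the complement list was -0.30 in the other fibroblasts.

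Chemokines and the response to interleukin 17 and tumour necrosis factor were mixed. Of 17 chemokines and scavengers, 7 were lower and 2 higher, with a median of -0.37, and of -0.44 in the other fibroblasts. Cxcl12, which attracts cells that bear CXCR4, was at 310 CPM in KO and 574 CPM in WT members, a ratio of 0.540, and Cxcl14 had 0.555. The abundant ones differed little, with Ccl2 at 8350 and 9021 CPM, Ccl7 at 2382 and 2716 CPM and Cxcl1 at 2463 and 2318 CPM. The 2 that were higher are scavenging receptors, Ackr3 with a ratio of 2.62 and Ackr2 with 1.93. Of 32 interleukin 17 and tumour necrosis factor response genes, 8 were lower and 2 higher. S100a8 and S100a9, keratinocyte and neutrophil proteins, were among the 8, with ratios of 0.0124 and 0.0226, and both were possible free RNA. Tnfaip3, an inhibitor of NF-kB signalling, had 1.81 and Vcam1, an adhesion molecule, 1.90. Il6 was at 933 CPM in KO and 634 CPM in WT, under the 1.5-fold bar. Ptges, the inducible prostaglandin E synthase, was at 170 CPM in KO and 654 CPM in WT members, a ratio of 0.259 (0.238 to 0.283), while Ptgs2, the cyclooxygenase before it in the pathway, was at 1885 and 1999 CPM.

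Structural matrix genes moved in both directions. Of 23 fibrillar collagen genes and processing factors, 6 were higher in KO members and 0 lower, with a median of 0.09. Col1a1 was at 1194 CPM in KO and 358 CPM in WT, Col3a1 at 1343 and 330 CPM and Col1a2 at 2100 and 907 CPM, but these 3 helped to choose the cells. In the other fibroblasts, which passed the same collagen limit, the ratios were 1.85, 1.83 and 1.45. Genes the rule did not use were Col12a1, a fibril-associated collagen, with a ratio of 3.07 (2.50 to 3.80), Col5a1 with 2.11 and Col16a1 with 1.88. Fn1 (fibronectin), which forms the early matrix, was at 224 CPM in KO and 61.0 CPM in WT members, a ratio of 3.68 (3.19 to 4.25), and in 49.8% and 22.2% of the cells. Of 10 small leucine-rich proteoglycans 2 were higher and 1 lower, with a median of -0.03. Lum, which sits on collagen fibrils, had 0.784, and Dcn, which the rule used, 0.780. Reck, a membrane inhibitor of matrix metalloproteinases, had 2.92, and Has1, a hyaluronan synthase, was at 630 and 268 CPM, a ratio of 2.35. Of 21 elastic fibre genes, 5 were higher and 3 lower. Eln was at 203 CPM in KO and 90.0 CPM in WT, a ratio of 2.26 (1.99 to 2.56), and Mfap4 at 250 and 137 CPM, a ratio of 1.83 (1.65 to 2.03). A single WT cell held 23.8% of all WT member Eln UMIs. In the other fibroblasts the Mfap4 ratio was 0.972. In members without 3 UMIs of another lineage (218 KO and 38 WT cells) the Mfap4 difference was 0.00 on the log2 scale, against 0.87 in all members.

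Several genes of growth factor responses were higher in KO members. Ctgf (CCN2; chromosome 10, 24595442 to 24598683, plus strand), a matricellular protein induced by transforming growth factor beta and by YAP with TEAD, was at 247 CPM in KO and 28.1 CPM in WT members, a ratio of 8.82 (7.26 to 10.8), and in 28.7% and 8.71% of the cells. In the other fibroblasts the ratio was 5.80. Amotl2, a scaffold that restrains YAP and is itself a YAP target, was at 147 and 41.0 CPM, a ratio of 3.60, and Vgll3, a TEAD cofactor, at 172 and 59.0 CPM, a ratio of 2.92. Without members that held 3 UMIs of another lineage the Vgll3 difference was 0.69 on the log2 scale, against 1.54 in all members, and that of Ctgf 1.99 against 3.14. Of 21 YAP and TEAD target genes 7 were higher and 0 lower, yet the median was 0.16, close to that of all genes. Axl and Tgfb2, members of the same list, had ratios of 0.987 and 0.998. Of 22 transforming growth factor beta genes 7 were higher and 0 lower, with a median of 0.32: Pmepa1 and Smad7, feedback inhibitors, had 2.06 and 2.05. Tnc and Tgfbi, matrix targets on the list, had 0.961 and 1.21. Of 23 BMP pathway genes 12 were higher and 0 lower, with a median of 0.63. Of 18 that were not possible free RNA, 8 were higher and 0 lower, with a median of 0.41. Over the alternatives of processing the median of the list ran from 0.22 to 0.76. Fst (follistatin), an activin antagonist, was at 2310 CPM in KO and 1490 CPM in WT, Nog had a ratio of 3.52 and Bmp2, a ligand, 1.76. Id1, a BMP target, had 3.50 but was possible free RNA. In the other fibroblasts the list medians were 0.34 for YAP and TEAD targets, 0.32 for transforming growth factor beta and 0.41 for the BMP pathway.

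Interferon-stimulated and immediate early genes were higher in KO members too. Of 30 interferon-stimulated genes 17 were higher and 1 lower, with a median of 0.72. Of 18 that were not possible free RNA, 10 were higher and 0 lower. Irgm1, an interferon-inducible GTPase, was at 61.5 CPM in KO and 12.2 CPM in WT, a ratio of 5.04 (3.70 to 6.98). Gbp2, of the guanylate-binding proteins, had 1.61 and Irf1, an interferon regulatory factor, was at 163 and 108 CPM. Cxcl10 did not go with them, at 250 and 283 CPM. Of 25 immediate early genes 14 were higher and 0 lower, with a median of 0.64: Egr1 was at 2533 and 1224 CPM, a ratio of 2.07, Fos at 1162 and 614 CPM and Cyr61, which is also a YAP target, at 2321 and 1491 CPM. Of 16 heat shock genes 5 were higher and 0 lower, with Hspa1b at 728 CPM in KO and 297 CPM in WT. Without possible free RNA, 12 of 22 immediate early and 2 of 12 heat shock genes were higher and 0 lower. As background, immediate early and heat shock genes respond to tissue digestion as well as to growth factors, and their part in the other differences was not tested. In the other fibroblasts the medians were 1.15, 0.70 and 0.75 for the 3 lists.

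**Figure D4:**
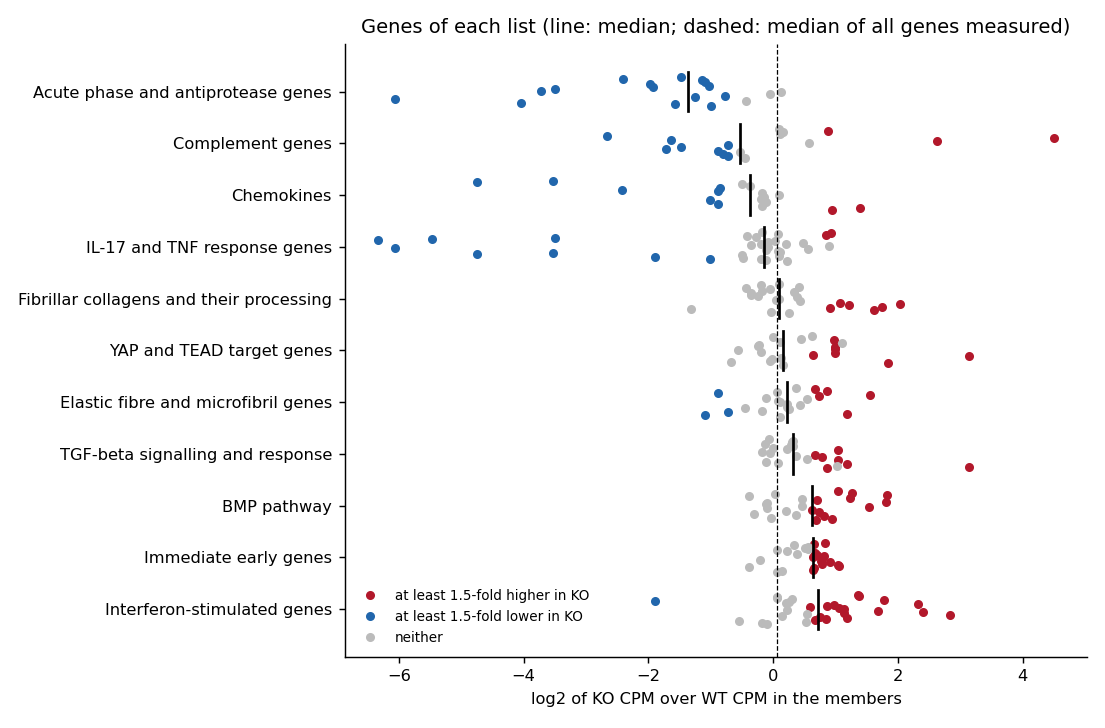
Each point is a gene of the list on the left, placed by its log2 KO over WT ratio of CPM in the members (genes at 0 in KO placed at the limit that 3 counts allow), with the list median as a line and that of all genes, 0.06, dashed. Red and blue points are at least 1.5-fold higher and lower in KO with an interval that leaves out 1, and grey points neither. The acute phase genes have a median of -1.37, and the interferon-stimulated genes one of 0.72.

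Among the other genes that the size rule named, Slc16a6, of the monocarboxylate transporter family, was at 143 CPM in KO and 18.8 CPM in WT members, a ratio of 7.59 (5.97 to 9.77). Ptbp1, a splicing repressor, was at 210 and 65.4 CPM, a ratio of 3.21, and in 73.6% and 43.0% of the cells. Fibin, named after fin bud initiation in fish, had 3.20 and 4.81 in the other fibroblasts. Ereg (epiregulin), a ligand of the epidermal growth factor receptor, had 4.43, but it was seen in 4.92% of KO and 6.64% of WT members and 1 KO cell held 35.3% of the KO UMIs. Stc1, a secreted glycoprotein, had 3.58 and was seen in 7.87% and 3.11% of the cells. Both genes were thus seen in few cells. Without members that held 3 UMIs of another lineage the Stc1 difference was 0.69 on the log2 scale, against 1.84 in all members.

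Of the genes lower in KO members, Mid1, a microtubule-associated ubiquitin ligase, was at 2.89 CPM in KO and 54.9 CPM in WT, a ratio of 0.0526 (0.0259 to 0.0960), and at 0.0720 in the other fibroblasts. Tmem176a and Tmem176b, membrane proteins whose genes overlap on opposite strands, so that their counts may not be separate, had 0.186 and 0.172. Spp1 (osteopontin), a matrix cytokine, had 0.218, Ifitm1, an interferon-inducible membrane protein, 0.261 and Chchd10, a mitochondrial protein, 0.241. Ifitm1 thus ran against the interferon list, to which it does not belong here. Coch was at 144 CPM in KO and 586 CPM in WT members, a ratio of 0.246 (0.224 to 0.270), and it was seen in 25.2% and 56.6% of the cells. Fmod and Tnmd cells, which the rule left out, had 15511 CPM in KO and 18920 CPM in WT, and they made up 214 of the other KO fibroblasts and 53 of the other WT fibroblasts.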

How the data were processed

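Cells from digested back skin, sorted as live, were measured by droplet single-cell RNA sequencing, 1 library per genotype. The deposited values are UMI counts per gene and barcode, not normalized, and the matrix header names software version 3.1.0, per the file headers. Cell Ranger 3.0.2, Seurat 3.0 and mm10 are named in the submitters' processing notes, without their roles.

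Cells were chosen by the limits given at the start of the report. Members and gene lists were chosen with earlier results of these data known. Counts were summed over members per library and divided by their total. Intervals are exact Poisson for levels, exact binomial for ratios and Clopper-Pearson for shares, all at 95%, and they cover counting error only. Symbols that occur more than once were summed (31053 features, 31017 symbols), and 31011 feature IDs matched GENCODE vM21, the source of the gene coordinates. Promoters came from RefSeq, and all 4 chosen genes matched. Named genes had at least 50 UMIs and 50 CPM and were ordered by the interval bound nearest 1, 12 in each direction between genotypes, without possible free RNA. Against other fibroblasts and in the split by Dpp4 they were ordered by the smaller ratio of both libraries, and list members by level or ratio. A gene that this rule takes is not reported here. Other genes printed were chosen after their values were seen. No doublet caller was run, and leaving out members with 3 UMIs of another lineage was an alternative. Other alternatives were the limits, scaling, thinning, cell weights and filters. The steps were tested on simulated data. Python 3.11.15, numpy 2.4.6, scipy 1.17.1, pandas 2.3.3 and matplotlib 3.10.9 were used.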

Additional observations from a re-analysis of the deposited data

Results flagged for a closer look

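Coch had a KO over WT ratio of 0.246 in the members and 2.92 in the other fibroblasts, opposite directions, and the difference was not tested. It was at 144 CPM in KO and 586 CPM in WT members, and at 2018 CPM in KO and 692 CPM in WT other fibroblasts. Among fibroblasts without the Fmod, Tnmd and papilla-like groups it was at 53.7 CPM in KO and 173 CPM in WT, a ratio of 0.311, the same direction as in the members. The papilla-like cells had 7293 CPM in KO and 384 CPM in WT.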

How the results depend on the processing

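No paired analysis was possible because each genotype has 1 library, and for the same reason no replicate could be left out. The share ratio of 1.28 was 1.08 with at least 3000 UMIs per barcode, 1.02 among fibroblasts and 1.03 with at least 4 Pi16 and Dpp4 UMIs. Genes 2-fold higher in KO members, 243 of 8014 tested, were 495 of 10070 at a minimum of 20 UMIs and 86 of 4488 at 200. With members thinned to 1000 UMIs they were 102 of 2856. Genes 2-fold lower, 185 of 8014, were 369 of 10070 at 20 UMIs, 71 of 4488 at 200 and 62 of 2856 thinned. They were 92 of 4155 without members holding 3 UMIs of another lineage and 120 of 7268 without possible free RNA. The counts against other fibroblasts are given without the genes tested, which also differed between settings. Against other fibroblasts, the 14 higher genes were 4 with at least 1 Pi16 and Dpp4 UMI, 32 with at least 4, 9 at 200 UMIs, 22 without members of another lineage and 9 where keratinocyte markers were not used for that. The 24 lower genes were 13 with at least 1, 97 with at least 4, 64 at 20 UMIs, 6 at 200, 135 without members of another lineage, 50 with keratinocyte markers not used, 14 thinned and 15 against fibroblasts without the Fmod, Tnmd and papilla-like groups. The last setting, the one that keeps keratinocyte markers out and the one with Pi16 alone were chosen after seeing the data. The adipocyte lineage list, median -0.33, turned to 0.08 thinned and 0.11 without possible free RNA, and the cause was not tested. In all, 31 of 297 alternatives changed the sign of a list median, in 13 of 33 lists. The reticular list, -0.24, was 0.29 without members of another lineage, 0.28 thinned and 0.40 with Pi16 alone. Matrix proteases, 0.04, were down to -0.27 with at least 4 Pi16 and Dpp4 UMIs. Of 294 alternatives over 37 named genes 2 changed sign, both of Pi16, a gene of the rule (-0.05, against 0.20 and 0.10). In size, 121 of the 294 values lay outside the counting interval of the gene's main ratio. Saa3 ranged from -4.26 to -2.44 on the log2 scale, Ctgf from 1.99 to 3.33 and Mfap4 from 0.00 to 1.23. Depth limits genes under about 20 UMIs.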
